A study of Mus musculus with 14 samples.

Results

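The genes of the cytosolic ribosomal proteins were followed through 14 RNA-seq libraries of mouse forelimb bud cells. They were taken by symbol from the deposited table of counts: every gene named Rpl or Rps with a number, together with Rplp0, Rplp1, Rplp2 and Rpsa, leaving out pseudogenes and the Rps6k kinases. The rule gave 85 of the 24454 genes of the table, 52 of the large and 33 of the small subunit, and 82 of them had enough reads to be tested. The 82 comprise 77 standard ribosomal protein genes (46 large, 31 small) and 5 paralogs whose symbols carry an l after the number (Rpl7l1, Rpl22l1, Rpl32l, Rps4l and Rps27l), of which the reference annotation lists Rpl32l and Rps4l as pseudogenes. Rpl3l, Rpl10l and Rpl39l, the other paralogs that the rule takes in, had 0 to 17 reads in each library and were not tested.

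The cells were sorted from pooled forelimb buds of Sox9 IRES-EGFP embryos (mixed Swiss Albino background, both sexes), in which EGFP reports Sox9 and which all populations share, after removal of dying cells and of cells positive for CD31, Ter119, CD45, EpCam, Gr1 or CD11b. 5 populations were compared. At E10.5 these were S9-SCA-1+ cells (Sox9-negative, JAG1-negative, SCA-1-positive, 2 libraries), S9-JAG1+ limb mesenchymal progenitors (LMPs; Sox9-negative, SCA-1-negative, JAG1-positive, 3 libraries), S9-Pαhi LMPs (negative for Sox9, JAG1 and SCA-1 and high in PDGFRα, 3 libraries) and S9+Pαhi osteo-chondrogenic progenitors (OCPs; Sox9-positive and high in PDGFRα, 3 libraries). S9+PαhiCol2a1+ chondroblasts (CBs) came from the Sox9-positive, PDGFRα-high gate at E11.5 (3 libraries), so that a difference of CBs from the other populations cannot be told apart from a difference in stage.

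Each ribosome is built from 1 copy of almost every one of these proteins and from ribosomal RNA. The small subunit reads the mRNA, the large subunit joins the amino acids, and the acidic P proteins form a stalk on the large subunit that recruits the elongation factors. Production of ribosomes is a major cost of a growing cell, and most mRNAs of ribosomal proteins start with a run of pyrimidines, the TOP motif, through which the mTORC1 pathway sets how well they are translated. That control acts on translation, which RNA-seq does not measure. In the developing skeleton, loss of 1 copy of Rpl38 or Rpl24 in mice gives defects of the skeleton, the tail or the coat.

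To show what the start of these genes looks like, the annotated start sites were read from RefSeq (GRCm38.p6), which held a window for 64 of the 85 genes. The lines below give 10 bases before the start and 20 from the start onwards on the gene's own strand, with the pyrimidine run that begins at the start in capitals. The first group carries the motif (a C at the start, within an unbroken run of at least 5 C or T, searched on the sense strand only). Shown are Rps6, whose protein is the classical target of the S6 kinases, Rps27, Rpl38 and Rpl35a.
Rps6, chr4:86857348-86857377, minus strand: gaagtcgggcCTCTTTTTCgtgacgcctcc
Rps27, chr3:90213629-90213658, minus strand: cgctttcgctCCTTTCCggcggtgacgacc
Rpl38, chr11:114668570-114668599, plus strand: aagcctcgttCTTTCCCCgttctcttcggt
Rpl35a, chr16:33056472-33056501, plus strand: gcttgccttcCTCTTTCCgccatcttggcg
The second group lacks it at the annotated start. Shown are Rps2, 1 of the genes with the largest differences below, Rps27l, the paralog of Rps27, and Rpl22l1, the paralog of Rpl22.
Rps2, chr17:24720053-24720082, plus strand: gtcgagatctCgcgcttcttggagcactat
Rps27l, chr9:66946076-66946105, plus strand: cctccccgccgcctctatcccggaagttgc
Rpl22l1, chr3:28805498-28805527, plus strand: gcgcaagcccgttctcttcccacggctgca
The motif stood exactly at the annotated start in 14 of the 64 genes (21.9%) and in 3.01% of all 27025 genes with a window. It began within 5 bases of the start in 30 of the 64 (46.9%) and in 21.2% of all genes. An annotated start is not a measured one, and a missing match says only that these letters are not at that position.

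Library totals ranged from 20316583 to 29162751 reads, and the biological coefficient of variation over all genes was 13.4%. Levels are in CPM, the counts relative to library totals scaled by the trimmed mean of M values (TMM), with 3 reads standing for 0.101 to 0.149 CPM. Of the population markers, Pax3 had a mean of 463 CPM in S9-SCA-1+ cells and Jag1 of 296 CPM in S9-JAG1+ LMPs. Sox9 had a mean of 437 CPM in OCPs and 536 CPM in CBs, and Acan of 9.55 CPM in CBs. Levels of Jag1, Sox9 and Acan in the remaining populations, and of any marker of S9-Pαhi LMPs, are not given here. In the S9-SCA-1+ cells Ly6a, the gene of SCA-1, was at 3.23 CPM, while Pax3 and Myf5, which mark muscle precursors, were far above the other populations. Of the cell types that the sort was meant to remove, markers of ectoderm (8 genes, summed 6.16 to 23.3 CPM), endothelium (6 genes, 2.89 to 15.5 CPM) and leukocytes (6 genes, 0 to 0.819 CPM) were low in every library. Within these ranges the ectoderm sum was highest in CBs (19.9 to 23.3 CPM), followed by OCPs (12.7 to 14.9 CPM). The endothelium sum was highest in S9-SCA-1+ cells (11.4 to 15.5 CPM). The 9 markers of red blood cells summed to 141 CPM in S9-SCA-1+ replicate 2 and to 4023 CPM in replicate 3, against 3.05 to 96.1 CPM in the other libraries.

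2 properties of these genes bear on all that follows. Most are short: the 82 tested had a median exon length of 706.5 bases, against 2910 bases for all tested genes, and 63 of them were under 1000 bases, against 8.12% of all tested genes. Many have processed copies elsewhere in the genome: a median of 53.3% of the 50-base stretches of a member's transcript (range 0 to 98.6%) also occurred in another gene's transcript, and each read that fits several places was assigned to 1 of them. The level printed for a member is therefore in many cases a part of its reads. Rps23, for example, had 4.34 to 7.24 CPM at E10.5, whereas its near-identical copy Rps23rg1, named after its values were seen, averaged 230 CPM. Reads of a member and of its copies cannot be told apart, and differences between populations are reported for the assigned reads only. Per kilobase of exon, the highest assigned levels belonged to Rpl41 (1436 CPM per kb), Rpl8 (1157), Rpl4 (1104), Rplp1 (982) and Rpl32 (941). For these values alone, CPM are relative to library totals without TMM scaling.

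Together, the members took the largest share of reads in S9-SCA-1+ cells and the smallest in CBs. The 2 S9-SCA-1+ libraries had 2.51% and 2.64% of their counts on the 85 genes. The S9-JAG1+ LMPs had 2.23%, 1.83% and 1.84%, the S9-Pαhi LMPs 2.02%, 1.89% and 2.32%, and the OCPs 2.38%, 1.44% and 1.91%. The CBs had 1.53%, 1.49% and 1.44%. The S9-SCA-1+ cells (2.58% ± 0.0901, SD, n = 2) lay above every other library and the CB libraries overlapped with the OCPs, whose replicate 2 was about as low as the lowest CB library. OCPs had a mean of 1.91% ± 0.473 (SD, n = 3) and CBs of 1.49% ± 0.0470 (SD, n = 3), so that the 3 OCP libraries differed among themselves far more than the CB libraries did.

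The same order appeared when each gene was set against its own mean over the 14 libraries on the log2 scale. The median over the members was 0.42 and 0.47 in the S9-SCA-1+ libraries and -0.41, -0.45 and -0.48 in the CB libraries. It was 0.33, -0.49 and -0.01 in OCP replicates 1, 2 and 3, and 0.29 in S9-JAG1+ replicate 1 against 0.00 and -0.03 in the other two. The S9-Pαhi libraries had 0.10, 0.01 and 0.30. The members of 1 library thus moved together, also between replicates of 1 population, with a pooled SD within populations of 0.22.

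**Figure D1:**
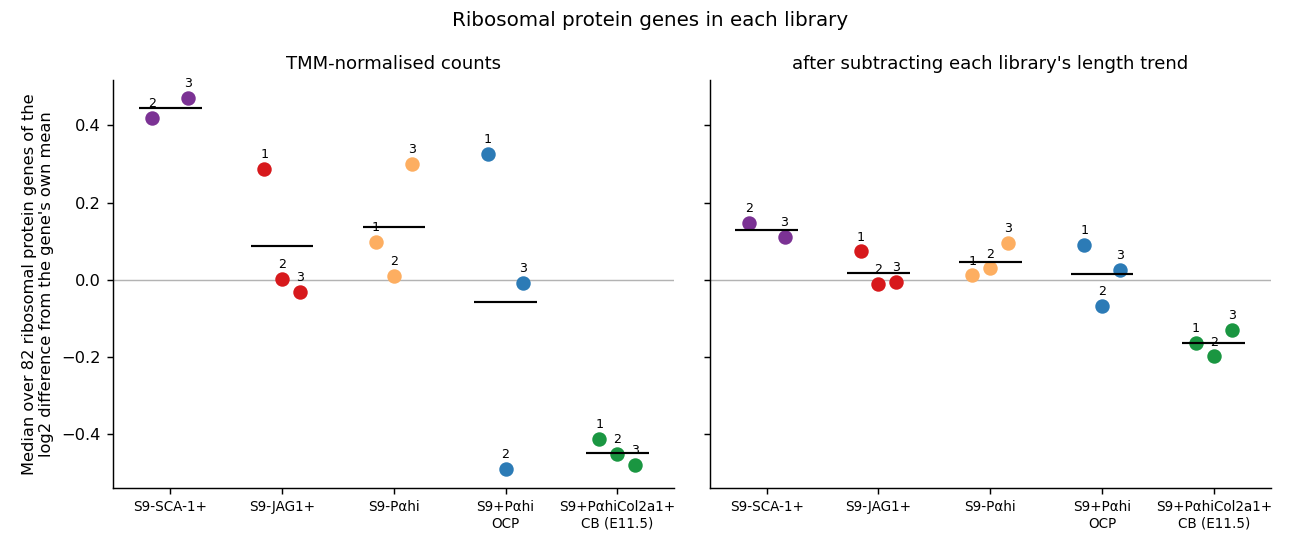
Median over the 82 tested ribosomal protein genes of the log2 level less the gene's own mean over the 14 libraries, 1 point per library, by population with the mean as a line, before (left) and after (right) removal of the trend with exon length in that library. Before removal OCP replicate 2 sits at -0.49, beside the CB libraries at -0.41 to -0.48, whereas after removal the S9-SCA-1+ libraries sit at 0.15 and 0.11 and the CB libraries at -0.16, -0.20 and -0.13.

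Much of this movement was shared with other short genes. In each library a smooth trend of the deviation with exon length was fitted to 8052 other genes with at least 20 CPM. At 500 bases this trend was 0.40 and 0.50 in the S9-SCA-1+ libraries, -0.35, -0.27 and -0.44 in the CB libraries, and 0.32, -0.62 and -0.02 in the OCP libraries. With the trend taken off, the members' median was 0.13 ± 0.02 (SD, n = 2) in S9-SCA-1+ cells, 0.02 ± 0.05 in S9-JAG1+ LMPs, 0.05 ± 0.04 in S9-Pαhi LMPs, 0.02 ± 0.08 in OCPs and -0.16 ± 0.03 in CBs (SD, n = 3 each). The pooled SD within populations fell to 0.051, and 74 of the 82 members varied less between replicates than before. Both S9-SCA-1+ libraries lay above and all CB libraries below the rest, of which S9-Pαhi replicate 3 and OCP replicate 1, at 0.09 each, came closest to the S9-SCA-1+ libraries. Whether the trend with length arose in the cells or in the making of the libraries was not tested, and all E11.5 libraries lie on its low side.

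In CBs, nearly every ribosomal protein gene was lower than elsewhere. All 82 log2 fold changes against the average of the 4 populations of E10.5 were negative, with a median of -0.62, against 0.05 over all 15125 tested genes. With the quasi-likelihood test of edgeR and Benjamini-Hochberg adjustment over all tested genes, 80 of the 82 were lower and 0 higher at an adjusted p of at most 0.1, which was reached by 29.4% of all tested genes in the lower and 35.7% in the higher direction. The 80 were 44 of 46 large subunit genes, 31 of 31 small subunit genes and 5 of 5 paralogs. The 2 that missed were Rpl26 and Rpl38. All 3 CB libraries lay below the 11 others for 14 of the 82 members and for 11.6% of all tested genes, since OCP replicate 2 often overlapped with them. Past the fold limit used by the study, a log2 fold change of 1.2 or more in size at the same adjusted p, were 3 of the 82 (Rpl21, Rplp1 and Rps2), against 12.7% of all tested genes.

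Set against other genes of their length, the members were still lower. Between 300 and 600 bases, the median log2 fold change of CBs was -0.71 for 30 members and -0.57 for 72 other genes with at least 20 CPM. Between 600 and 1000 bases it was -0.60 for 33 members and -0.41 for 263 other genes, and between 1000 and 1500 bases -0.48 for 10 members and -0.33 for 594 others. The longer classes held few members, with -0.90 for 4 members and -0.25 for 797 others between 1500 and 2000 bases, and -0.53 for 3 members and -0.16 for 1716 others between 2000 and 3000 bases. The remaining 2 members had -0.46 and -0.54, where the others had -0.10 (3000 to 4000 bases) and 0.02 (4000 to 6000 bases). The gap was in the same direction in each of these classes. When the length trend of each library entered the test as an offset, 48 of the 82 members were lower and 5 higher in CBs, against 24.9% and 41.4% of all tested genes, and all 48 were among the 80. The median of the members was then -0.21, while that of all tested genes was shifted to 0.13, a gap of -0.34 for the members. All tested genes include those under 20 CPM, to which the trend was not fitted and which the length classes above leave out. The 5 that turned to higher were Rps19 (log2 fold change 0.22, adjusted p = 0.094), Rps4l (0.17, 0.052), Rpl7 (0.11, 0.054), Rps4x (0.11, 0.094) and Rpl10 (0.11, 0.065).

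**Figure D2:**
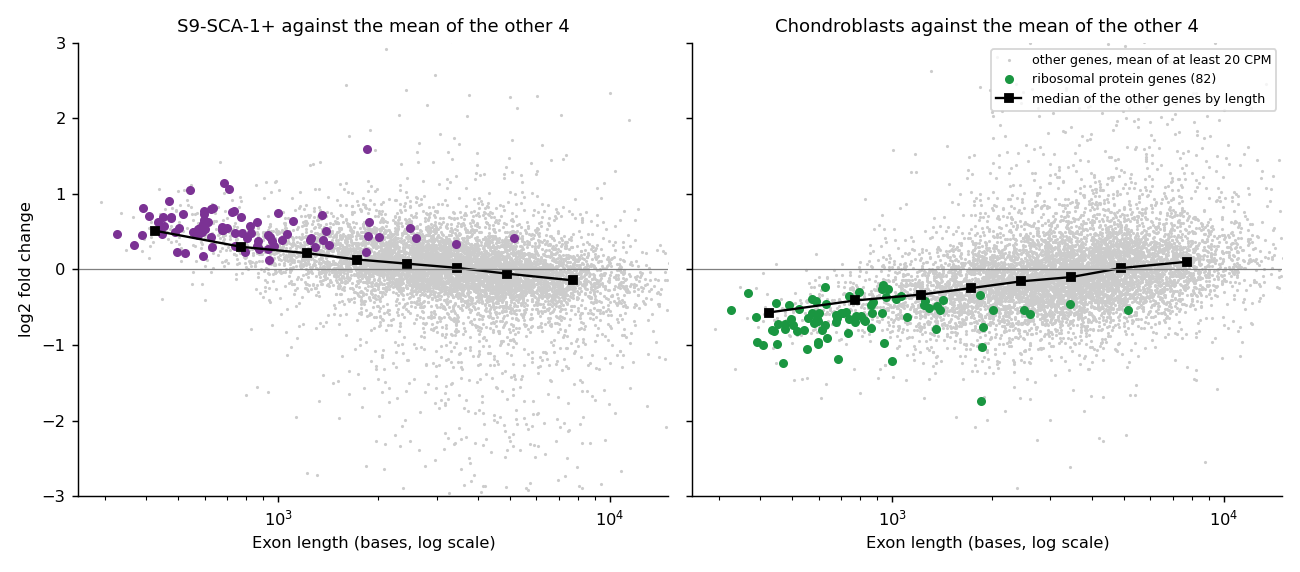
Log2 fold change against the mean of the other 4 populations, plotted by exon length (log axis, bases), for S9-SCA-1+ cells and for CBs. Points are the ribosomal protein genes and the other genes with at least 20 CPM, and black squares are the medians of the other genes by length class, which run from 0.51 at 300 to 600 bases to -0.15 at 6000 to 10000 bases in S9-SCA-1+ cells and from -0.57 to 0.10 in CBs; the vertical axis ends at 3 in both directions.

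Rplp1, an acidic protein of the stalk, was among the members with the largest differences in CBs. It was at 223, 237 and 221 CPM in CBs. The S9-SCA-1+ cells had 744 and 744 CPM. It was at 665, 355 and 381 CPM in S9-JAG1+ LMPs, at 478, 414 and 706 CPM in S9-Pαhi LMPs and at 643, 257 and 438 CPM in OCPs. All 3 CB libraries were below all others, and the E10.5 libraries differed by more than the CB level itself. Its log2 fold change in CBs was -1.24 (SE 0.25, adjusted p = 0.00082), and -0.71 (adjusted p = 0.00019) with length offsets. The other two members of the stalk, given to complete it, changed in the same direction: Rplp0, its base, had -0.78 (SE 0.16, adjusted p = 0.00071) and Rplp2 had -0.81 (SE 0.22, adjusted p = 0.0054). With length offsets these were -0.49 (adjusted p = 0.001) and -0.29 (adjusted p = 0.032).

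Among the small subunit genes, Rps2, whose protein lines the entry of the mRNA channel, had the largest difference. It was at 248, 194 and 138 CPM in CBs, at 436, 246 and 331 CPM in OCPs, at 454, 403 and 429 CPM in S9-Pαhi LMPs, at 588, 417 and 442 CPM in S9-JAG1+ LMPs and at 582 and 560 CPM in S9-SCA-1+ cells. CB replicate 1 and OCP replicate 2 overlapped, and the other 2 CB libraries were below all others. The log2 fold change was -1.21 (SE 0.18, adjusted p = 6.7e-05), just inside the fold limit, with Rpl34 just outside it at -1.19. Rps2 kept a difference of -0.85 with length offsets.

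Rps23, a protein of the decoding centre, separated the populations most relative to its replicate error, with the largest F of the joint test over the 5 populations (21.6, adjusted p = 4e-05). It was at 2.83, 3.05 and 2.79 CPM in CBs and at 5.27, 4.71 and 4.34 CPM in OCPs. The E10.5 LMPs and S9-SCA-1+ cells lay between 5.6 and 7.24 CPM, so that OCPs lay between CBs and the other populations without overlap. The log2 fold change in CBs was -1.05 (SE 0.12, adjusted p = 6.9e-06), and -0.59 (adjusted p = 0.0039) with length offsets. Its copy Rps23rg1, which holds most of the reads, had -0.71 (SE 0.16, adjusted p = 0.0015).

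Rpl19, which the study used as the reference gene of its RT-qPCR, followed the other members. It was at 162, 155 and 166 CPM in CBs, at 268, 178 and 219 CPM in OCPs, at 239, 225 and 293 CPM in S9-Pαhi LMPs, at 250, 226 and 220 CPM in S9-JAG1+ LMPs and at 273 and 297 CPM in S9-SCA-1+ cells. The CB libraries lay below all others. Its log2 fold change was -0.62 (SE 0.11, adjusted p = 0.00023) in CBs and 0.42 (SE 0.12, adjusted p = 0.012) in S9-SCA-1+ cells, close to the median of the members in both. With length offsets it kept -0.21 (adjusted p = 0.0025) in CBs and had 0.08 in S9-SCA-1+ cells.

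**Figure D3:**
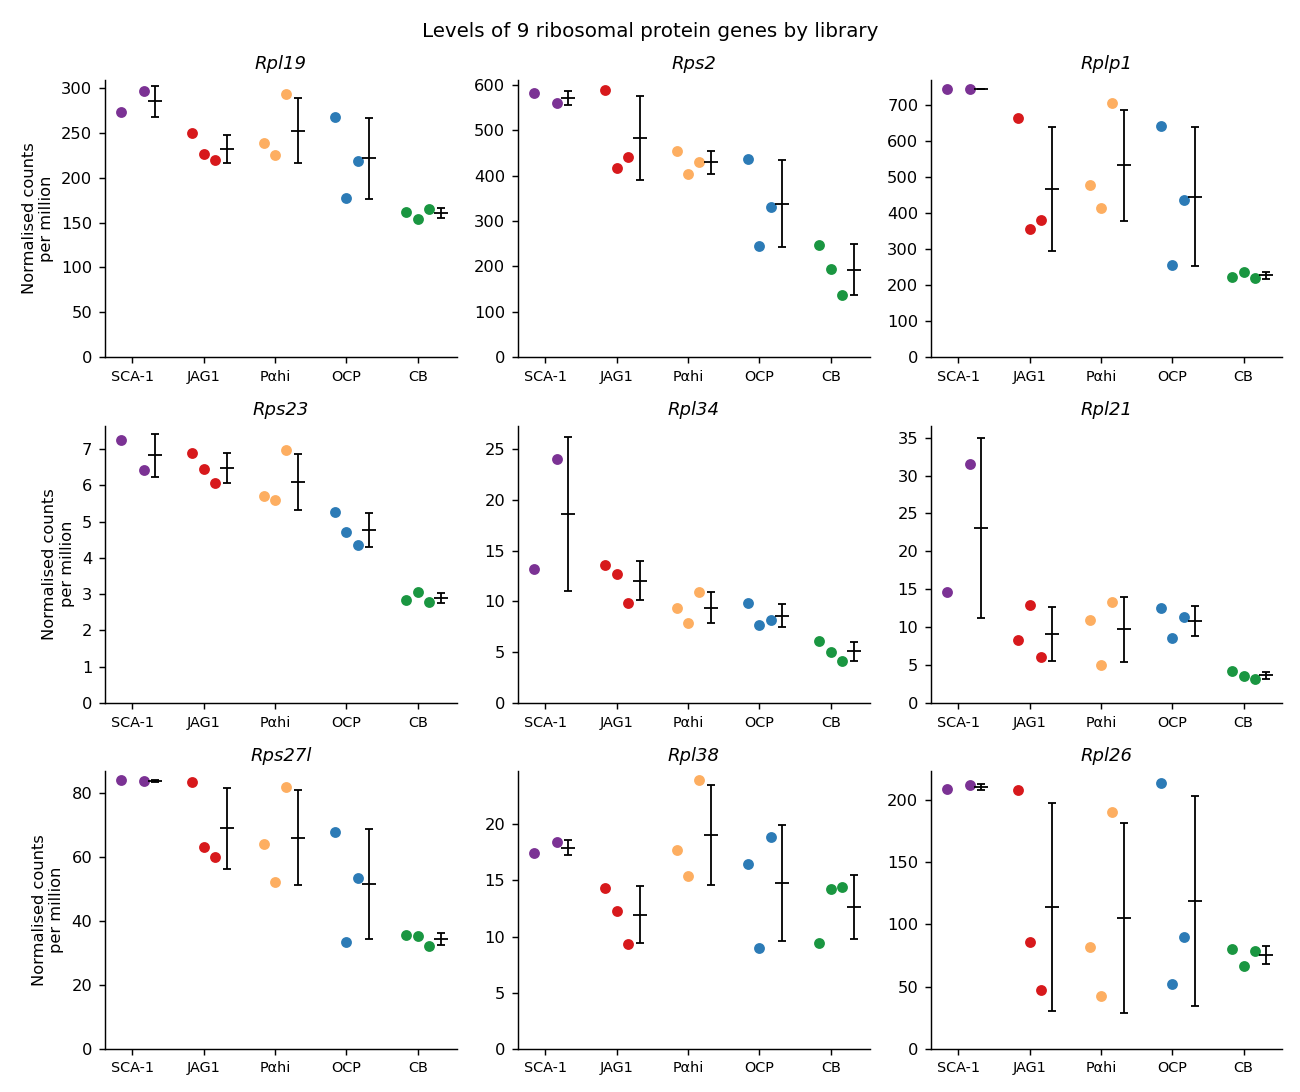
CPM on TMM-scaled totals of 9 ribosomal protein genes, 1 panel each, in the 14 libraries by population; dots are libraries and bars are the mean with its SD. Rps23 falls from 5.6 to 7.24 CPM in the LMPs and S9-SCA-1+ cells to 2.79 to 3.05 CPM in CBs, whereas Rpl26 varies from 42.5 to 214 CPM with no separation of the populations.

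In S9-SCA-1+ cells the members went the opposite way. All 82 log2 fold changes against the mean of the other 4 populations were positive, with a median of 0.50, against -0.01 over all tested genes. That mean includes the CBs of E11.5, so the results of S9-SCA-1+ cells and of CBs are not independent. No fit without the CBs was run. 66 of the 82 were higher and 0 lower, against 23.5% and 22.8% of all tested genes. The 66 were 39 of 46 large subunit genes, 24 of 31 small subunit genes and 3 of 5 paralogs. Both S9-SCA-1+ libraries were above the 12 others for 34 of the 82 members and for 10.8% of all tested genes. Only Rpl21 was past the fold limit, which 11.3% of all tested genes passed.

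This population had 2 libraries, and the calls rested on both. Without S9-SCA-1+ replicate 3, 27 of the 82 were higher, with the lone replicate assumed to vary like the other populations. The median over the members ran from 0.46 to 0.56 when single libraries were left out. The share of all tested genes called in such refits was not worked out. Replicate 3 is also the library with 4023 CPM of red blood cell markers and a deviation of the members' median of 0.47, against 141 CPM and 0.42 in replicate 2, and the part of these cells in the result was not tested. With length offsets 31 members were higher and 0 lower, against 24.0% and 23.1% of all tested genes, and all 31 were among the 66. Their median was 0.15, and -0.03 over all tested genes. By length class, the medians were 0.55 for members and 0.51 for other genes at 300 to 600 bases, 0.49 and 0.30 at 600 to 1000 bases and 0.41 and 0.21 at 1000 to 1500 bases. The members were thus close to other genes of their length in the shortest class and above them in the longer ones.

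3 large subunit genes stood out in S9-SCA-1+ cells, through 1 of the 2 libraries. Rpl21 was at 14.7 and 31.5 CPM there, at 8.31, 12.9 and 6.07 CPM in S9-JAG1+ LMPs, at 10.9, 4.96 and 13.3 CPM in S9-Pαhi LMPs, at 12.5, 8.61 and 11.4 CPM in OCPs and at 4.17, 3.56 and 3.18 CPM in CBs. Both S9-SCA-1+ libraries were above and all CB libraries below the other 9. The log2 fold change was 1.59 (SE 0.29, adjusted p = 0.0006) in S9-SCA-1+ cells and -1.74 (SE 0.32, adjusted p = 0.00041) in CBs, and with length offsets 1.50 and -1.55, since its annotated exons add up to 1856 bases. Without S9-SCA-1+ replicate 3, the former was 0.94 (adjusted p = 0.0976).

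Rpl34 was at 13.2 and 24.0 CPM in S9-SCA-1+ cells and between 7.7 and 13.6 CPM in the other E10.5 libraries. Only replicate 3 lay above S9-JAG1+ replicate 1, the highest of the others. Its log2 fold change was 1.15 (SE 0.18, adjusted p = 0.00021), and 0.66 without that replicate (adjusted p = 0.045). Rpl29 had 4.23 and 9.37 CPM against 2.26 to 4.18 CPM elsewhere, and its 1.06 (SE 0.22, adjusted p = 0.0018) fell to 0.38 (adjusted p = 0.31) without replicate 3. In Rpl30, which was not called, the same library stood apart, with 92.1 CPM against 31.0 CPM in replicate 2. All of these 4 genes share 50-base stretches with other transcripts, 26.2% of them in Rpl21, 50.6% in Rpl34, 66.8% in Rpl29 and 76.4% in Rpl30. The smallest calls in S9-SCA-1+ cells were those of Rpl10 (0.23), Rpl7 (0.27) and Rps24 (0.27), which with length offsets were -0.11, -0.02 and -0.04.

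The other 3 populations of E10.5 gave few calls in these genes. In S9-JAG1+ LMPs 7 of the 82 members were higher and 0 lower, against 24.2% and 25.7% of all tested genes, with a median of 0.06. The 7 were Rps2 (0.44, SE 0.16, adjusted p = 0.043), Rps23 (0.40), Rpl27 (0.40), Rpl34 (0.37), Rpl12 (0.30), Rpl22l1 (0.28) and Rps4l (0.17). Leaving out single libraries moved this count between 2 and 18. The call of Rps23 held in each refit without 1 library, and those of Rps2, Rpl27, Rpl12, Rpl22l1 and Rps4l were lost in at least 1. With length offsets 10 members were higher and 9 lower, against 22.9% and 29.5% of all tested genes, and 4 of the 7 were among the 10, namely Rps2, Rps23, Rpl27 and Rpl22l1. In S9-Pαhi LMPs 0 members were higher and 0 lower, against 8.03% and 7.60% of all tested genes, with a median of 0.13; 5 were higher and 1 lower at an unadjusted p under 0.05, and DESeq2 called 1 higher. In OCPs 0 were higher and 2 lower, Rpl27 (-0.41, SE 0.16, adjusted p = 0.090) and Rps4l, against 16.6% and 11.9%, with a median of -0.05. These counts turned on the OCP libraries: without OCP replicate 1, 34 members were lower in OCPs, without OCP replicate 2, 5 were higher, and without either of them 9 or 7 were higher in S9-Pαhi LMPs. They also turned on the S9-SCA-1+ libraries, without which 19 members were higher in S9-JAG1+ and 13 in S9-Pαhi LMPs. The share of all tested genes called in these refits was not worked out. The moves can therefore not be told apart from those of genes in general.

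Between neighbouring populations, 45 of the 82 members were lower in CBs than in OCPs, a count that depended on OCP replicate 1. The comparisons share libraries with those above, so that they are not further evidence for them. S9-Pαhi against S9-JAG1+ LMPs gave 1 member higher (Rpl38) and 1 lower (Rpl22l1), against 15.2% and 12.8% of all tested genes. OCPs against S9-Pαhi LMPs gave 0 higher and 0 lower, against 11.8% and 8.35%, with a median of -0.15, 7 lower at an unadjusted p under 0.05, 3 lower by DESeq2, and 41 lower without OCP replicate 1. Its median ran from -0.39 to 0.01 when single libraries were left out, and that of CBs against OCPs from -0.65 to -0.23. CBs against OCPs gave these 45 lower and 0 higher, against 16.5% and 18.3%, with a median of -0.45 and all 82 values negative. With length offsets 32 were lower and 0 higher, against 13.5% and 22.0%, all 32 among the 45, with a median of -0.19. In each of the other directions with 0 members called in edgeR, the count at an unadjusted p under 0.05 and that of DESeq2 were 0 as well. The count of lower members in CBs against OCPs, without offsets, ran from 14 without OCP replicate 1 to 76 without OCP replicate 2, and it was 27 and 26 without CB replicates 2 and 3. For the refits without a library, no share of all tested genes was worked out. Rpl21 was the only member past the fold limit in this comparison (-1.57, SE 0.37, adjusted p = 0.0073), which 7.77% of all tested genes passed.

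S9-SCA-1+ cells against S9-JAG1+ LMPs gave 18 members higher and 0 lower, against 16.2% and 15% of all tested genes (2272 of the 15125 were lower), with a median of 0.36. With length offsets 14 were higher and 0 lower, against 18.8% and 14.4%, and 7 of them were among the 18. The share of members called was thus near that of all genes with offsets. For the refits that follow, no share of all genes was worked out. The count was 1 without S9-SCA-1+ replicate 3, 9 without S9-SCA-1+ replicate 2, 31 without S9-JAG1+ replicate 1, 5 and 4 without S9-JAG1+ replicates 2 and 3, and 45 and 52 without OCP replicates 1 and 2. Rpl21 alone passed the fold limit (1.34, SE 0.38, adjusted p = 0.018), as did 11.4% of all tested genes; without S9-SCA-1+ replicate 3 it was 0.69 (adjusted p = 0.35).

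Over all 5 populations jointly, 76 of the 82 members differed at an adjusted p of at most 0.1, as did 74.8% of all tested genes. With length offsets these were 55 of the 82 and 76.4% of all tested genes, so that the share of members fell below that of all genes. Next to Rps23, the largest F belonged to Rpl10a (17.4), a large subunit protein, and Rpl34 (16.6). The smallest belonged to Rpl26 (1.49, adjusted p = 0.30), Rpl30 (2.26) and Rpl23a (2.32). Rpl26, a protein near the exit of the peptide tunnel, was at 209 and 212 CPM in S9-SCA-1+ cells, 208, 86.1 and 47.5 CPM in S9-JAG1+ LMPs, 82, 42.5 and 190 CPM in S9-Pαhi LMPs, 214, 52.4 and 90.0 CPM in OCPs and 80.5, 66.8 and 78.9 CPM in CBs. Replicates of S9-JAG1+ and S9-Pαhi LMPs and OCPs differed about as much as the populations, with an SD within populations of 0.87 on the log2 scale, 0.68 with the length trend taken off, and a median over the members of 0.25 and 0.14. Its copies share 71.3% of its 50-base stretches.

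Rpl38 and Rpl24 are among the members whose mouse mutants have skeletal or coat phenotypes. Rpl38 was at 17.5 and 18.4 CPM in S9-SCA-1+ cells, 14.3, 12.2 and 9.32 CPM in S9-JAG1+ LMPs, 17.7, 15.4 and 24.0 CPM in S9-Pαhi LMPs, 16.5, 8.99 and 18.8 CPM in OCPs and 9.38, 14.2 and 14.4 CPM in CBs. S9-Pαhi LMPs lay above S9-JAG1+ LMPs in all libraries, with a log2 fold change of 0.67 (SE 0.26, adjusted p = 0.080). This call was lost without S9-JAG1+ replicate 2 or 3, without S9-Pαhi replicate 1 or 3, and without either S9-SCA-1+ library. With single libraries left out, the log2 fold change ran from 0.47 to 0.82. The difference of CBs from the other populations was -0.31 (adjusted p = 0.22). Rpl24 had -0.60 in CBs (SE 0.16, adjusted p = 0.0058) and 0.56 in S9-SCA-1+ cells (SE 0.17, adjusted p = 0.021), and neither passed with length offsets (-0.15, adjusted p = 0.14, and 0.16, adjusted p = 0.18).

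The paralogs allow a comparison of related proteins. Rps27l, a p53-responsive paralog of Rps27, was at 35.4, 35.1 and 32.2 CPM in CBs, 67.7, 33.5 and 53.2 CPM in OCPs, 63.9, 52.2 and 81.6 CPM in S9-Pαhi LMPs, 83.4, 63.1 and 60.0 CPM in S9-JAG1+ LMPs and 83.9 and 83.5 CPM in S9-SCA-1+ cells. CBs overlapped only with OCP replicate 2. Its log2 fold change in CBs was -0.96 (SE 0.18, adjusted p = 0.00044) and -0.48 (adjusted p = 6.6e-05) with length offsets, under which it had the largest joint F of all members (14.0). Rps27 had -0.40 (SE 0.15, adjusted p = 0.034) and 0.08 (adjusted p = 0.40) with length offsets, and 98.6% of its 50-base stretches occur elsewhere. The difference between Rps27l and Rps27 was not tested.

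Rpl22l1, the paralog of the RNA-binding protein Rpl22, was at 44.6, 38.6 and 44.3 CPM in S9-Pαhi LMPs and at 60.4, 54.7 and 52.9 CPM in S9-JAG1+ LMPs, without overlap, a log2 fold change of -0.40 (adjusted p = 0.077). In CBs it had -0.72 (SE 0.13, adjusted p = 0.00025) and Rpl22 had -0.53 (SE 0.15, adjusted p = 0.0063). With length offsets these were -0.23 (adjusted p = 0.059) and -0.42 (adjusted p = 0.014), so that the order of their sizes turned with the offset: Rpl22 has 2497 bases of exon and Rpl22l1 has 477. Rpl7l1, with 2606 bases the longer relative of Rpl7, had -0.59 (SE 0.13, adjusted p = 0.0014) in CBs and -0.48 with length offsets, against -0.26 and 0.11 for Rpl7. Rps4l and Rps4x, its parent on the X chromosome, had -0.20 and -0.26 in CBs and 0.17 and 0.11 with length offsets. Rpl32l had -0.66 and Rpl32 had -0.73.

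Members with and without the TOP motif at the annotated start had medians close to each other in CBs. Of the tested genes with a window, the 14 with the motif had a median log2 fold change of -0.58 in CBs and the 47 without it of -0.62, and with length offsets -0.20 and -0.21. In S9-SCA-1+ cells the medians were 0.45 and 0.50, and 0.05 and 0.16 with length offsets. These are descriptions, with no test. The 47 include genes whose pyrimidine run starts beside the annotated start, such as Rpl27a and Rps24. The split can therefore not tell TOP mRNAs from others.

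Ribosome biogenesis factors, which process ribosomal RNA and assemble the subunits in the nucleolus, were higher in S9-SCA-1+ cells in 73 of 76 (median 0.62), higher in S9-JAG1+ LMPs in 74 of 76 (median 0.50), called in 0 of 76 in S9-Pαhi LMPs (median 0.02, with 1 higher at an unadjusted p under 0.05 and 0 by DESeq2), lower in OCPs in 60 of 76 (median -0.32) and lower in CBs in 76 of 76 (median -0.81). Of all tested genes, 23.5% were higher in S9-SCA-1+ cells and 24.2% in S9-JAG1+ LMPs. In S9-Pαhi LMPs 8.03% of all tested genes were higher and 7.60% lower, and 11.9% were lower in OCPs and 29.4% in CBs. Examples of the biogenesis factors in CBs were Nhp2 (-1.42, SE 0.20, adjusted p = 3.2e-05), a protein of pseudouridylation particles, and Grwd1 (-1.37, SE 0.13, adjusted p = 1.1e-06). In S9-JAG1+ LMPs Sdad1 had 0.89 (SE 0.06) and Rrs1 had 0.82 (SE 0.07). With length offsets the counts were 73 higher in S9-SCA-1+ cells (24.0% of all tested genes), 74 higher in S9-JAG1+ LMPs (22.9%) and 75 lower in CBs (24.9%). Between S9-SCA-1+ cells and S9-JAG1+ LMPs, 6 of the 76 were higher in the former and 2 lower (median 0.10). These counts were below the shares of all tested genes, 16.2% and 15%. In S9-JAG1+ LMPs, 74 of 76 biogenesis factors and 7 of 82 ribosomal protein genes were higher, against 24.2% of all tested genes. Both lists were tested in the same fit with the same limit, and the difference between them was not tested. Of the 14 genes of RNA polymerase I, which makes ribosomal RNA, 9 were higher in S9-SCA-1+ cells (23.5% of all tested genes), 7 higher in S9-JAG1+ LMPs (24.2%), 1 higher in S9-Pαhi LMPs (8.03%), 5 lower in OCPs (11.9%) and 11 lower in CBs (29.4%), where Polr1b had -1.02 (SE 0.08) and Polr1e had -0.88 (SE 0.09). With length offsets 9 were higher and 1 lower in S9-SCA-1+ cells (24.0% and 23.1% of all tested genes). In S9-JAG1+ LMPs 7 were then higher (22.9%), and in CBs 1 was higher and 9 were lower (41.4% and 24.9%). The median of the 14 was 0.03 in S9-SCA-1+ cells against S9-JAG1+ LMPs.

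Mitochondrial ribosomal proteins, encoded in the nucleus for the ribosome of mitochondria, were higher in S9-SCA-1+ cells in 59 of 78 (median 0.40), higher in S9-JAG1+ LMPs in 27 of 78 (median 0.17) and lower in CBs in 73 of 78 (median -0.52), where Mrpl12 had -1.27 and Mrps18b had -1.19. Of all tested genes, 23.5% were higher in S9-SCA-1+ cells, 24.2% higher in S9-JAG1+ LMPs and 29.4% lower in CBs. With length offsets 43 of the 78 were higher and 5 lower in S9-SCA-1+ cells (24.0% and 23.1% of all tested genes). In S9-JAG1+ LMPs 24 were then higher and 2 lower (22.9% and 29.5%), and in CBs 42 were lower and 3 higher (24.9% and 41.4%). The mitochondrial ribosomal protein genes are short too. Their medians with length offsets (0.22 in S9-SCA-1+ cells and -0.20 in CBs) were close to those of the cytosolic ribosomal proteins. Of 19 other translation factors whose mRNAs are known for the TOP motif, 13 were higher in S9-SCA-1+ cells (23.5% of all tested genes) and 15 lower in CBs (29.4%), with Eef1d, an elongation factor subunit, at 0.77 (SE 0.14) and -1.02 (SE 0.14), and Pabpc1, the poly(A) binding protein, at 0.57 (SE 0.11) and -0.70 (SE 0.11). In S9-JAG1+ LMPs 1 of these 19 was higher and 2 were lower (24.2% and 25.7%). With length offsets 11 were higher and 3 lower in S9-SCA-1+ cells (24.0% and 23.1% of all tested genes), 1 higher and 5 lower in S9-JAG1+ LMPs (22.9% and 29.5%), and 3 higher and 12 lower in CBs (41.4% and 24.9%, median -0.19).

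Genes of the mTORC1 pathway and targets of p53 were called in both directions in CBs. Of 13 genes of the mTORC1 pathway, 4 were higher in S9-SCA-1+ cells (23.5% of all tested genes), 5 higher and 1 lower in S9-JAG1+ LMPs (24.2% and 25.7%), 1 higher and 1 lower in S9-Pαhi LMPs (8.03% and 7.60%), 4 lower in OCPs (11.9%), and 4 higher and 7 lower in CBs (35.7% and 29.4%). With length offsets 7 were higher in S9-SCA-1+ cells (24.0% of all tested genes) and 4 higher in S9-JAG1+ LMPs (22.9%). In CBs 2 were then higher and 6 lower (41.4% and 24.9%). Eif4ebp1, the translation repressor that mTORC1 inactivates, had 1.15 (SE 0.14, adjusted p = 1.8e-05) in S9-SCA-1+ cells and -1.20 (SE 0.14, adjusted p = 8.9e-06) in CBs, and Deptor, an inhibitor of mTOR, had 0.75 (SE 0.16, adjusted p = 0.00097) in CBs. Of 12 targets of p53, the factor that free ribosomal proteins can activate through Mdm2, 6 were higher and 1 lower in S9-SCA-1+ cells (23.5% and 22.8% of all tested genes), 4 higher and 5 lower in S9-JAG1+ LMPs (24.2% and 25.7%), 2 lower in S9-Pαhi LMPs (7.60%), 2 higher and 4 lower in OCPs (16.6% and 11.9%), and 3 higher and 6 lower in CBs (35.7% and 29.4%). With length offsets 5 were higher and 1 lower in S9-SCA-1+ cells (24.0% and 23.1% of all tested genes). In S9-JAG1+ LMPs 4 were then higher and 6 lower (22.9% and 29.5%), and in CBs 5 were higher and 5 lower (41.4% and 24.9%). Cdkn1a, a cell cycle inhibitor that muscle precursors also express, had 5.78 (SE 0.20) and Plk2 had 2.18 (SE 0.21) in S9-SCA-1+ cells.

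**Figure D4:**
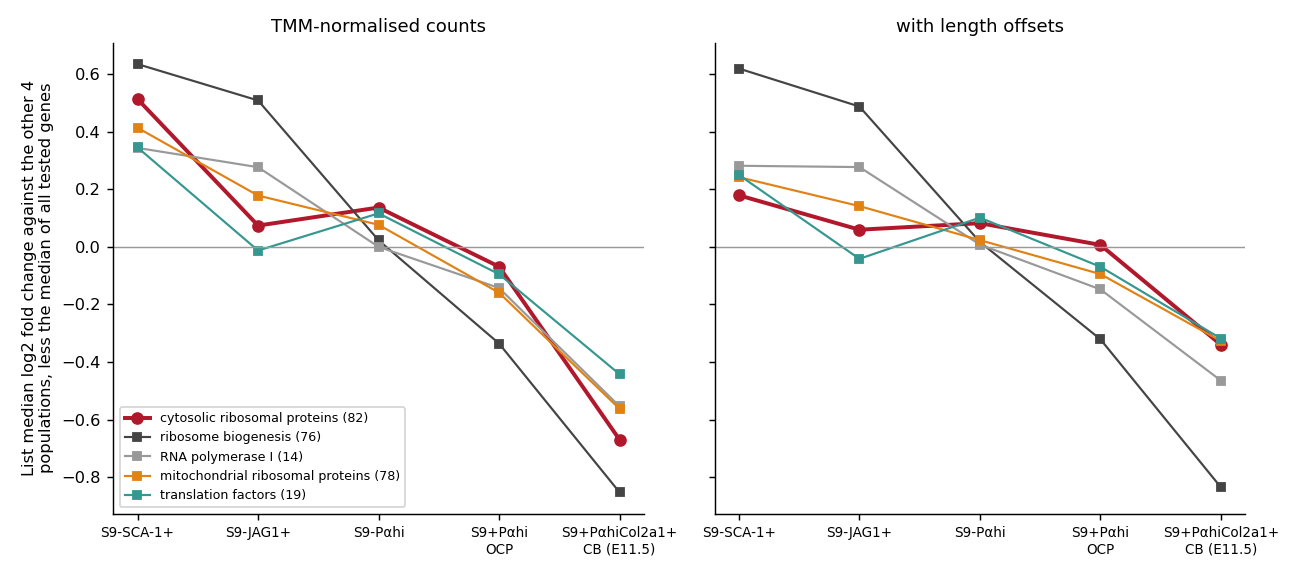
Median log2 fold change of each population against the average of the remaining 4, less the median of all tested genes, for the ribosomal protein genes and 4 other lists, without (left) and with (right) length offsets; lines only join the points of a list. On the left the biogenesis factors stand at 0.51 and the ribosomal protein genes at 0.07 in S9-JAG1+ LMPs, and at -0.85 and -0.67 in CBs.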

How the data were processed

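The authors sorted the cells, isolated poly(A) RNA with RNeasy and NEBNext kits, sequenced single-end 50-base reads on a HiSeq 2500, aligned them with STAR to mm10, keeping 1 position for each multi-mapping read, and counted reads that start in RefSeq exons with QuasR. Whether strand was used is not given in the sources used here. The deposited values are counts of reads per Entrez gene without normalization. Of the 24454 identifiers, 24374 were matched to symbols, and the other 80 held 0.358% of the counts.

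Genes were filtered with filterByExpr (15125 kept), scaled with TMM and fitted by population over all 14 libraries with edgeR 4.0.16 in R 4.3.3 by the quasi-likelihood test, with Benjamini-Hochberg adjustment over all tested genes. Contrasts set each population against the average of the remaining 4; 4 pairs and a joint test were added. The study calls the replicates biological. Nothing states that they came from separate litters, so p-values measure the spread between these libraries. SE is the log2 fold change over the square root of F. Log2 levels used a pseudocount of 1 CPM for the length trend. The trend was a loess (span 0.5) over 8052 genes other than the members, and its fitted values per library were the length offsets. Such an offset removes any difference that follows length, whatever its source. Scripts were tested on simulated data.

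Members and gene lists were chosen with earlier results of these data known. Genes were named by rule: Rpl19, Rpl38 and Rpl24, the 3 largest and 3 smallest calls of each population, paralogs with their parents, the 5 highest members per kb, the 3 largest and 3 smallest joint F, members past the fold limit, and the top 2 genes of each other list. Rplp0, Rplp2 and Rps23rg1 were added after their values were seen. Alternatives were DESeq2 1.42.0, other size factors, library totals, other filters, offsets for length with GC content, a replicate block, a stricter adjusted p, and left-out libraries. Shares of all tested genes were worked out for the main fit and for part of the contrasts with length offsets only.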

Additional observations from a re-analysis of the deposited data

How the results depend on the processing

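The direction of the median was the same under every alternative for S9-SCA-1+ cells (0.14 to 0.58) and CBs (-0.70 to -0.19), and the size depended on the length trend. Counts in this section are of members only, and most have no share of all tested genes to set them against. With length offsets that share was not worked out for S9-Pαhi LMPs, OCPs, S9-Pαhi against S9-JAG1+ LMPs or OCPs against S9-Pαhi LMPs. It was not worked out for any other alternative or left-out library. With length offsets, 31 members were higher in S9-SCA-1+ cells (median 0.15), 9 lower in S9-JAG1+ LMPs, 2 higher and 3 lower in S9-Pαhi LMPs, 3 higher and 1 lower in OCPs, and 5 higher, 48 lower and 1 past the fold limit in CBs (median -0.21). Between pairs, 7 were higher and 7 lower in S9-Pαhi against S9-JAG1+ LMPs and 2 higher in OCPs against S9-Pαhi LMPs, with medians of -0.19 in CBs against OCPs and 0.12 in S9-SCA-1+ cells against S9-JAG1+ LMPs. With length and GC offsets these were 35 higher (0.16), 11 lower, 2 and 3, 3 and 1, and 5, 47 and 1 (-0.19), and between pairs 8 and 7, 4 higher and 1 lower, 2 higher and 29 lower (-0.18), and 0.14. Length offsets without OCP replicate 2, an alternative chosen after seeing the data, gave 36 higher and 1 lower (0.14), 13 higher and 15 lower, 3 and 4, 6 and 1, and 5 higher and 1 past the fold limit (-0.20), and between pairs 13 and 9, 1 higher, 2 higher (-0.20), and 1 lower (0.12). With length offsets Rpl7 (0.11, 0.09 with GC), Rps19 (0.22, 0.23 with GC) and Rps4l (0.17, 0.18 with GC) turned to higher in CBs. In S9-SCA-1+ cells the sign turned for Rpl10 (-0.11, -0.09 with GC) and, without GC, for Rpl7 (-0.02) and Rps24 (-0.04), none of which passed as lower. The cause of the trend was not tested.

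Deviations of libraries with the same replicate number correlated with a median r of -0.005 (range -0.18 to 0.31, 4 of 26 pairs over 0.1). For different numbers the median r was -0.003. The pairs with CBs join E11.5 with E10.5, which cannot share a pool of buds. These correlations cannot tell whether libraries with the same number came from the same pool, which the labels do not state. The replicate block gave 3 members past the fold limit in S9-SCA-1+ cells, 1 higher and 1 lower in S9-Pαhi LMPs, 3 and 3 in S9-Pαhi against S9-JAG1+ LMPs, 5 lower in OCPs against S9-Pαhi LMPs and 49 higher in S9-SCA-1+ cells against S9-JAG1+ LMPs. The replicate block with length offsets gave 34 higher and 1 lower in S9-SCA-1+ cells (0.16), 11 lower in S9-JAG1+ LMPs, 3 and 4 in S9-Pαhi LMPs, 4 higher in OCPs, and 5 higher, 50 lower and 1 past the fold limit in CBs (-0.22). Between pairs it gave 8 and 7, 2 higher and 3 lower, a median of -0.18 in CBs against OCPs, and 0.11 in S9-SCA-1+ cells against S9-JAG1+ LMPs. Under it Rpl7 (0.12), Rps19 (0.23) and Rps4l (0.17) were higher in CBs, and in S9-SCA-1+ cells Rpl10 (-0.12), Rpl7 (-0.03) and Rps24 (-0.08) turned their sign without passing as lower.

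Library totals gave 3 higher and 2 lower in S9-JAG1+ LMPs, 1 lower in S9-Pαhi LMPs, 1 lower in OCPs, 1 past the fold limit in CBs, 2 higher in S9-Pαhi against S9-JAG1+ LMPs and 30 higher in S9-SCA-1+ cells against S9-JAG1+ LMPs. DESeq2 gave 1 higher in S9-Pαhi LMPs, 2 higher and 2 lower in S9-Pαhi against S9-JAG1+ LMPs and 3 lower in OCPs against S9-Pαhi LMPs, its size factors alone 1 higher in S9-Pαhi LMPs, and TMM without the members 2 higher there. Without the filter 1 was lower in OCPs and 2 were higher and 5 past the fold limit in CBs. At an adjusted p of at most 0.05, 2 were higher in S9-JAG1+ LMPs, 0 lower in OCPs, 0 higher and 0 lower in S9-Pαhi against S9-JAG1+ LMPs, 28 lower in CBs against OCPs and 7 higher in S9-SCA-1+ cells against S9-JAG1+ LMPs. Without the S9-SCA-1+ libraries 19 were higher in S9-JAG1+ LMPs, 13 higher in S9-Pαhi LMPs, 0 lower in OCPs and 1 past the fold limit in CBs. On TMM-scaled totals the share in CBs was 1.41%.

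Leaving out single libraries gave 27 to 74 higher and 0 to 4 past the fold limit in S9-SCA-1+ cells, 2 to 18 higher and 0 to 4 lower in S9-JAG1+ LMPs, 0 to 9 higher and 0 to 1 lower in S9-Pαhi LMPs, 0 to 5 higher and 0 to 34 lower in OCPs (median -0.28 to 0.12), and 0 to 1 higher and 1 to 5 past the fold limit in CBs. Between pairs it gave 0 to 7 higher and 0 to 4 lower in S9-Pαhi against S9-JAG1+ LMPs, 0 to 41 lower in OCPs against S9-Pαhi LMPs (median -0.39 to 0.01), 14 to 76 lower and 1 to 3 past the fold limit in CBs against OCPs, and 1 to 52 higher and 0 to 2 past it in S9-SCA-1+ cells against S9-JAG1+ LMPs. The number lower in CBs stayed at 74 to 82. Rpl29 (1.06 in S9-SCA-1+ cells) had 0.61 and missed the limit with the replicate block and length offsets, and Rpl27 in OCPs missed it in 10 of 14 refits without 1 library (-0.76 to -0.22) and without the S9-SCA-1+ libraries (-0.25). Over the named single-gene calls, leaving out 1 library kept the call in 265 refits and lost it in 71, with no change of sign. The part of sequencing depth in these ranges was not tested.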
